A study of Caenorhabditis elegans with 8 samples.

Results

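The heterochronic genes lin-14, lin-28, lin-29, lin-41, lin-42, lin-46 and hbl-1 time larval development in Caenorhabditis elegans. All 7 were found by gene name among 44968 rows of the poly(A) table, and by sequence name among 25640 genes of the rRNA-depleted table. The libraries came from synchronized worms grown in liquid culture and collected as young adults, whole animals in which fewer cells of a type and less RNA per cell cannot be told apart. Wild-type animals, which the poly(A) headers place in the strain N2 on the empty RNAi vector L4440, were compared with animals under RNAi against CstF50, a protein of mRNA 3' end cleavage that the gene cpf-1 encodes. Each group had 2 libraries of poly(A)-selected RNA and 2 of rRNA-depleted total RNA, 8 in all. The rRNA-depleted table names its conditions A and B and not their treatment, so its values are given as B against A with no treatment assigned. No label says that the 2 libraries of a group came from separate cultures, so the p-values measure a spread that may be technical. The target gene cpf-1 itself stood at 50.5 FPKM in wild type and 67.8 FPKM in the libraries labelled CstF50 RNAi (q = 0.613, authors' deposited table), so no fall of the target backs the label on which every poly(A) direction rests.

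Heterochronic genes act as a relay in which each stage's regulator is switched off so that the next fate can be expressed. The miRNA lin-4 turns down lin-14 and lin-28, and the let-7 family turns down hbl-1 and lin-41. Once these juvenile regulators fall, the transcription factor gene lin-29 drives the larval-to-adult switch of the epidermis, in which larval collagens give way to adult ones.

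In poly(A)-selected RNA the juvenile regulators lin-14, lin-28, hbl-1 and lin-41 all had lower values in the libraries labelled CstF50 RNAi than in wild type, while lin-29 and lin-42 had higher ones. None of these differences passed the authors' Cuffdiff test at a q-value under 0.05, and the authors tested only lin-28. The background was 16.8% of 8513 tested genes called, 13.6% lower and 3.12% higher in RNAi. Most genes had lower values in RNAi, with a median log2 fold change of -0.90 over 8244 tested genes with both values above 0. The 7 heterochronic genes had a median of -1.40, and 5 of them were lower. Lower values were listed for 81.3% of tested genes and 76.4% of all rows with both values above 0.

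The gene lin-28 (chromosome I, 8406837 to 8410798, ce10) encodes an RNA-binding protein that blocks maturation of let-7. In the authors' deposited table its level was 16.1 FPKM (fragments scaled by transcript length and by mapped fragments) in wild type against 4.45 FPKM under RNAi. This is a log2 fold change of -1.86 with a standard error (SE) of 0.75 implied by the authors' p-value, and a Cuffdiff q-value of 0.067. The unadjusted p was 0.0136, and 33.3% of tested genes had one under 0.05. Relative to the median gene the log2 fold change was -0.96 (adjusted p = 0.657 by a normal deviate). The authors' locus also covers F02E9.1, a gene on the opposite strand that shares 16 exonic bases (1.10%) with lin-28 in the WBcel235 annotation. That neighbour fell from 115 to 26.0 FPKM (q = 0.0256, authors' deposited table), and its part in the lin-28 value was not tested.

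The genes with no authors' test had low values. The zinc finger transcription factor gene hbl-1 (chromosome X, 5822242 to 5827714), which prevents precocious late larval fates, is listed in the authors' deposited table at 4.19 FPKM in wild type against 0.886 under RNAi. Its log2 difference was -2.24 (implied SE 0.76) with an unadjusted p of 0.00319, and its p adjusted over all rows was 0.138. Among untested rows with both values above 0, 7.43% had an unadjusted p under 0.05.

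The transcription factor gene lin-14 (chromosome X, 11468435 to 11484202), which specifies the earliest larval fates, stood at 0.745 against 0.0595 FPKM (authors' deposited table). Its log2 difference of -3.65 (implied SE 1.74) shrank to -0.72 with a pseudocount of 1 FPKM, because both values were under 1. The gene lin-41 (chromosome I, 9335764 to 9342488) encodes an RNA-binding protein that represses lin-29 and also acts in oocytes. Its level of 6.15 against 2.34 FPKM (authors' deposited table) is a log2 difference of -1.40 (implied SE 0.80). Oocyte markers were lower there too, with the 4 markers rme-2, oma-1, oma-2 and puf-5 summing to 1903 and 936 FPKM. None of the 4 was called, and their median log2 fold change of -1.08 lay near the -0.90 of all tested genes. The part of oocyte RNA in the lin-41 value was not tested.

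The late-acting genes lay under 1 FPKM in both groups. The adult switch gene lin-29 (chromosome II, 11916448 to 11935280) is listed at 0.169 FPKM in wild type against 0.647 FPKM under RNAi in the authors' deposited table. Its log2 difference of 1.94 carries an unadjusted p of 0.985, so the deposited test gives it an implied SE of 105 and no usable precision. The locus includes hmg-12, a gene on the opposite strand listed at 900 against 996 FPKM (authors' deposited table), whose exons share 2 bases with lin-29.

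The gene lin-42 (chromosome II, 1233957 to 1244042) encodes the worm relative of the clock protein PERIOD and cycles with the molts. The authors' deposited table lists it at 0.446 against 0.651 FPKM (log2 difference 0.54, implied SE 1.72). The gene lin-46 (chromosome V, 12968837 to 12970716) acts downstream of lin-28 and opposes hbl-1. The authors' deposited table lists it at 0.453 against 0.316 FPKM (log2 difference -0.52, implied SE 1.18). Both differences were within 1 implied SE.

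The order of the 7 levels was the same at the top and different at the bottom. In both groups lin-28 was the highest, followed by lin-41 and hbl-1. In wild type lin-14 came next, then lin-46, lin-42 and lin-29. In RNAi lin-42 and lin-29 came next, then lin-46 and lin-14. The FPKM of lin-28 was 95.7 times that of lin-29 in wild type and 6.88 times in RNAi, and for hbl-1 the multiples were 24.9 and 1.37. These multiples carry no replicate error, because the table holds 1 value per group, and the lower places were not separated by their implied errors.

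**Figure D1:**
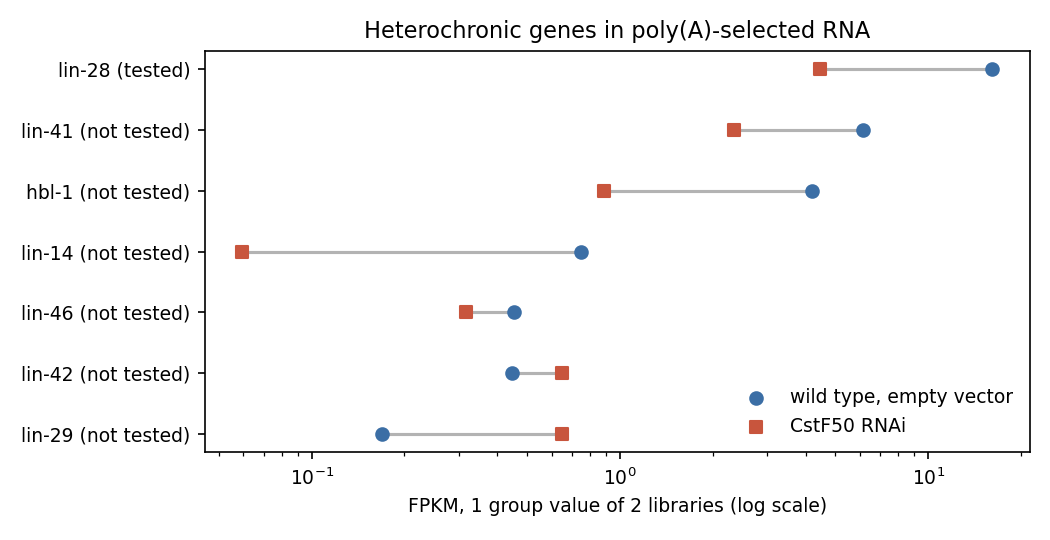
FPKM of the 7 heterochronic genes in poly(A)-selected RNA on a log axis, with 1 group value of 2 libraries each for wild type on the empty vector (circles) and CstF50 RNAi (squares), and no error bars because the table gives none. The upper 5 genes lie further left in RNAi and the lower 2 further right, from 16.1 to 4.45 FPKM for lin-28 and from 0.169 to 0.647 FPKM for lin-29.

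In rRNA-depleted RNA lin-28 was lower in condition B, lin-29 and lin-42 had higher values there, and lin-14, hbl-1 and lin-41 differed by less than 1.1-fold between the means. The authors' DESeq test at an adjusted p under 0.05 called 1 of the 7 genes, lin-28, as lower in B. The background was 8.31% of 25640 genes, 2.77% lower and 5.54% higher in B. The median log2 fold change of B over A was -0.06 for the 7 genes and 0.02 for 19779 genes with both means above 0. Each mean is a sum of 2 whole counts scaled by fixed size factors, which allowed the counts of each library to be recovered for all 7 genes.

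The gene lin-28 had 1160 and 420 recovered counts in A, against 3547 and 1319 in B. Divided by the size factors, condition A had 1570.2 and 1686 normalized counts, against 977 and 856 for B. Both libraries of A lay above both of B, an arrangement found in 32% of genes with a mean of at least 10. In the authors' deposited table the means were 1628 and 916, a 1.78-fold fall and a log2 fold change of -0.83 with a DESeq adjusted p of 0.0198. By limma-voom on the recovered counts the log2 fold change was -0.78 (SE 0.12, n = 2 against 2) with an adjusted p of 0.00144, and it passed without each library in turn. The neighbour F02E9.1 had means of 621 and 423 (adjusted p = 0.241) in the authors' deposited table.

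The adult switch gene lin-29 had 36 and 11 recovered counts in A, against 430 and 198 in B. Scaled, these are 48.7 and 44.2 normalized counts in A against 118 and 129 in B, so both libraries of B were higher, as in 39.5% of genes with a mean of at least 10. The lowest count, 11, has an exact 95% Poisson interval from 5.49 to 19.7, which covers counting error only. The 2.66-fold difference, a log2 fold change of 1.41, missed the DESeq threshold in the authors' deposited table (p = 0.014, adjusted p = 0.128). By limma-voom it was 1.34 (SE 0.34, adjusted p = 0.0164), against backgrounds of 27.8% of genes called in all and 16% called higher in B (28.1% in all with the recovered size factors), and without library 1 of A it was 1.42 (adjusted p = 0.139). The gene hmg-12 in the same locus moved the other way, with means of 1457 and 1057 (adjusted p = 0.5) in the authors' deposited table.

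The PERIOD relative lin-42 had 33 and 16 recovered counts in A, against 393 and 184 in B. Its normalized counts were 44.7 and 64.2 in A against 108 and 119.4 in B. The conditions thus did not overlap for lin-42, with B higher as in 39.5% of genes with a mean of at least 10. In the authors' deposited table the log2 fold change was 1.06 with an adjusted p of 0.205 by DESeq. By limma-voom it was 1.16 (SE 0.33, adjusted p = 0.0287), and without library 1 of A it was 0.78 (adjusted p = 0.391). Within the lin-42 locus, on the opposite strand and sharing no exonic base, F47F6.14 had 0 counts in both libraries of A, against 19 and 2 in B.

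The other juvenile regulators showed no change past the DESeq or limma-voom tests on all 4 libraries. The gene lin-14 had 429 and 337 normalized counts in A against 401 and 430.3 in B, with overlapping conditions and a limma-voom log2 fold change of 0.05 (SE 0.17). The gene hbl-1 had 287 and 257 in A against 252 and 269 in B, also overlapping, with a log2 fold change of -0.10 (SE 0.18). Both errors are smaller than the size of the lin-28 difference (-0.78).

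The oocyte and epidermal regulator lin-41 had 3655 and 3661 normalized counts in A against 3461 and 3239.5 in B. Both libraries of A were higher, as in 32% of genes with a mean of at least 10. The limma-voom log2 fold change of lin-41 was only -0.10 (SE 0.08, adjusted p = 0.387). Without library 1 of B it was -0.18 (adjusted p = 0.0349). The 4 oocyte markers summed to between 16424 and 17449 normalized counts in all 4 libraries. That sum holds members whose means differed in opposite directions, and none of the 4 passed by DESeq. The marker puf-5 had means of 4318 and 3596 in A and B (limma-voom adjusted p = 0.045). By limma-voom 27.8% of all genes passed. Means were 1284 and 1685 for oma-1 and 2027 and 2355 for oma-2, which did not pass (limma-voom adjusted p = 0.0576 and 0.115). The gene lin-46 had 37.9 and 40.1 normalized counts in A against 17.6 and 39.6 in B. Its conditions overlapped, and library 1 of B stood apart from the other three.

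**Figure D2:**
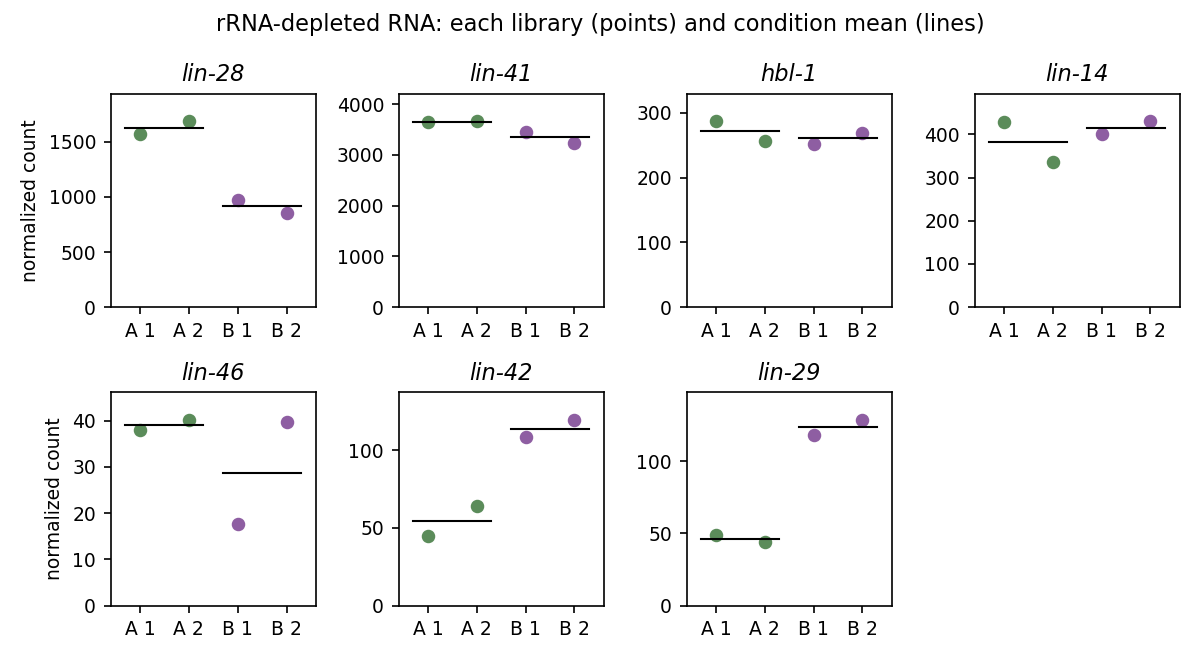
Normalized counts (recovered counts divided by size factors) of the 7 heterochronic genes in each rRNA-depleted library of conditions A and B, with points for libraries, lines for condition means and axes starting at 0. Conditions are separated for lin-28 (1570.2 and 1686 in A, 977 and 856 in B), lin-29, lin-42 and narrowly lin-41, and overlap for lin-14, hbl-1 and lin-46. Among all genes with a mean of at least 10, 39.5% were separated with B higher and 32% with A higher.

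Ratios of counts within a library do not depend on scaling between libraries. The count of lin-28 was 32.2 and 38.2 times that of lin-29 in A, against 8.25 and 6.66 times in B. For lin-41 the multiples of lin-29 were 75 and 82.9 in A against 29.2 and 25.2 in B, for lin-14 they were 8.81 and 7.64 against 3.38 and 3.35, and for hbl-1 5.89 and 5.82 against 2.13 and 2.10. Every one of these 4 ratios was at least 2.26 times higher in the lower library of A than in the higher library of B. All share the lin-29 count and are not independent of each other. The ratio of lin-28 to lin-14 was 3.66 and 5 in A against 2.44 and 1.99 in B. That of lin-28 to lin-41 was 0.43 and 0.461 in A against 0.282 and 0.264 in B, so lin-28 differed relative to lin-14 and lin-41 as well. For lin-28 to lin-46 the conditions overlapped, at 41.4 and 42 in A against 55.4 and 21.6 in B. No test was made on these ratios.

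**Figure D3:**
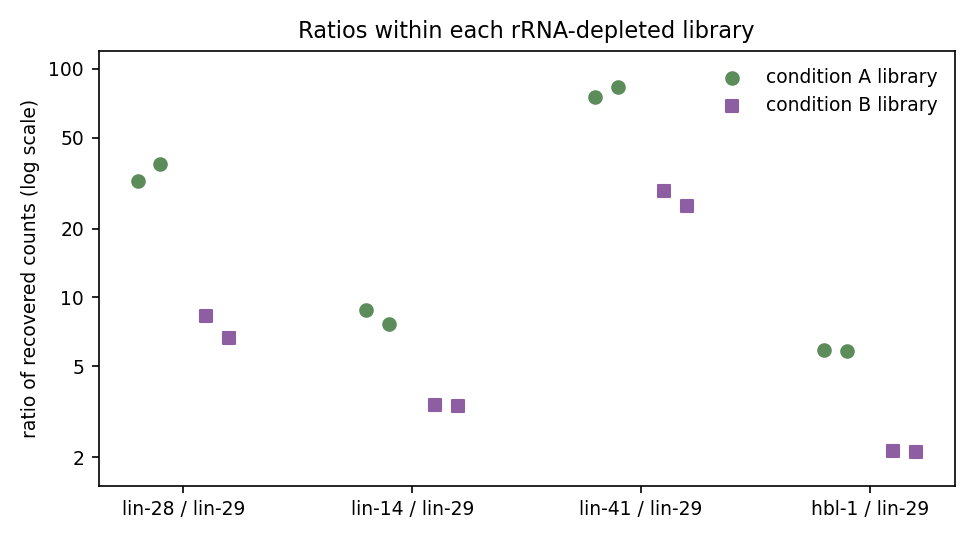
Ratio of recovered counts of lin-28, lin-14, lin-41 and hbl-1 to those of lin-29 within each rRNA-depleted library, on a log axis, with circles for condition A and squares for condition B. Both libraries of A lie above both of B in each ratio, for example 32.2 and 38.2 against 8.25 and 6.66 for lin-28.

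Per kilobase of merged exons in the WBcel235 annotation, which may differ from the gene models the authors counted, lin-28 was the highest in A and lin-41 in B. The gene lin-28 had 1081 and 1160.4 normalized counts per kilobase in A, then 672 and 589 in B, against 760 and 761 and then 719 and 674 for lin-41. The genes lin-14 and hbl-1 followed in every library, at 92.0 to 117 and 56.4 to 64.1. In A the order then ran lin-46, lin-29 and lin-42, and in B lin-29 and lin-42 with lin-46 at 12.9 and 29.0. The places of lin-42 and lin-46 in B were not separated, since 1 library put lin-46 within 1 normalized count per kilobase of lin-42. In this table lin-14 lay above hbl-1, whereas in the poly(A) table it lay below it.

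The fold changes of the 7 genes were ranked among 8244 tested poly(A) genes, although 6 of the 7 were not tested themselves. In poly(A) RNA 96.1% of tested genes had a lower log2 fold change than lin-29, 89.0% than lin-42, 10.3% than lin-28, 26.7% than lin-41, 67.1% than lin-46, 4.09% than hbl-1 and 0.303% than lin-14. The places of lin-29, lin-42, lin-46 and lin-14 rest on values under 1 FPKM, and with a pseudocount of 1 FPKM the log2 difference of lin-29 was 0.50 and that of lin-14 -0.72. In rRNA-depleted RNA the shares among 15282 genes with a mean of at least 10 were 91.3% for lin-29, 87.8% for lin-42, 13.7% for lin-28, 25.1% for lin-46 and 39.9% for lin-41. For hbl-1 and lin-14 they were 43.6% and 53.98%, near the middle. The tables were normalized separately, and the fold changes of the second have no assigned treatment, so their directions cannot be matched.

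**Figure D4:**
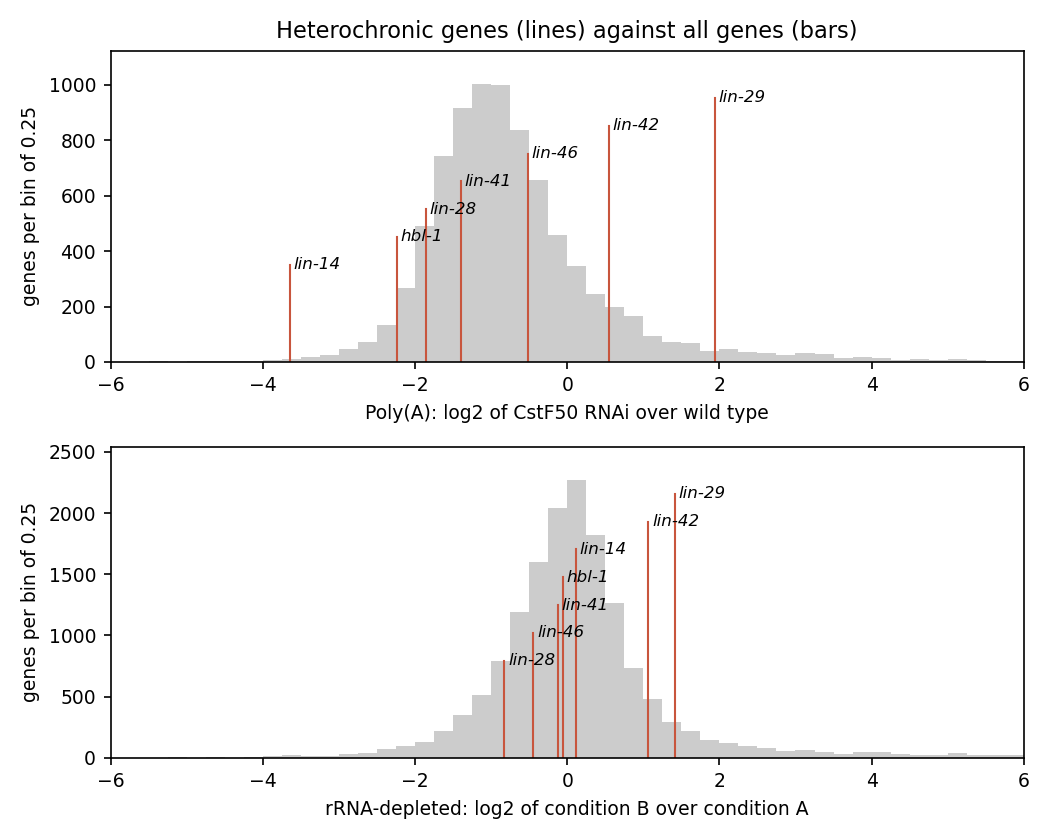
Log2 fold changes of the 7 heterochronic genes (lines, with heights set only to keep names apart) over the number of genes per bin of 0.25 (bars), for tested genes in poly(A) RNA as CstF50 RNAi over wild type and for genes with a mean of at least 10 in rRNA-depleted RNA as condition B over A. The bars centre near -0.90 in the upper panel and near 0 in the lower, with lin-29 at 1.94 and 1.41 and lin-28 at -1.86 and -0.83.

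Of 39 other genes of the pathway, 23 were tested in poly(A) RNA, where 4 fell, none rose and 19 did not pass, with a median log2 fold change of -1.19. Over all tested genes 13.6% were called lower and the median was -0.90, so the list's 4 calls lie near the background. In rRNA-depleted RNA 36 were listed, of which 5 were higher in B, none lower and 31 did not pass by DESeq (10 had an unadjusted p under 0.05), and the median of the 31 with a fold was 0.51. Over all genes 5.54% were called higher, 2.77% lower, and 16% had an unadjusted p under 0.05. By limma-voom 15 of 33 were higher and 1 lower in B, against backgrounds of 16% and 11.7%. Both libraries of B lay above both of A in 25 of 30 such genes with a mean of at least 10, where 39.5% of all genes did.

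The 4 genes that fell in poly(A) RNA came from lists in which most tested genes did not pass, 5 of 7 miRNA factors and 5 of 7 late timing genes. The gene myrf-1, named pqn-47 in the files and required to end larval molting, went from 12.2 to 1.65 FPKM (q = 0.00179, authors' deposited table). The nuclear receptor gene nhr-23, which drives molting, went from 21.4 to 6.43 FPKM (q = 0.0198 in the authors' deposited table). The miRNA cofactor nhl-2 went from 30.9 to 11.1 FPKM (q = 0.0308) and pash-1, which helps to process miRNA precursors, from 18.4 to 6.58 FPKM (q = 0.0407) in the authors' deposited table. Measured against the median gene, none of these 4 passed (adjusted p from 0.0626 for myrf-1 to 0.736 for pash-1). Over all 8244 genes so measured 6.15% passed. The 1 pathway gene to pass there was lep-5, a non-coding RNA that lowers LIN-28 activity. It had 65.8 against 174 FPKM and q = 0.0551 (authors' deposited table). Its relative log2 fold change was 2.30 (adjusted p = 0.000939 by a normal deviate). The gene lep-5 was named after its value was seen.

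The 5 pathway genes higher in B include 2 of the miRNA machinery. Dicer, dcr-1, which cuts miRNA precursors, had means of 1482 and 3215 in the authors' deposited table (adjusted p = 5e-06), and ain-1, which joins the miRNA silencing complex, had 556 and 1028 (adjusted p = 0.0308). The gene apl-1, a let-7 pathway output encoding the worm amyloid precursor protein, had means of 1565 and 3548 (adjusted p = 3.64e-06) in the authors' deposited table. The lin-28 repressor lin-66 had 359 and 698 (adjusted p = 0.0322) and the zinc finger gene sea-2 had 298 and 679 (adjusted p = 0.0464) in the authors' deposited table. In all 5 genes both libraries of B exceeded both of A, as in 39.5% of genes with a mean of at least 10. The 5 were named for passing on these same libraries, so this order adds no support.

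The miRNA genes themselves could not be followed. By sequence name let-7, mir-48 and mir-241 were among the rRNA-depleted genes, each with no count in A. In B, let-7 had 0 and 1 recovered counts, mir-48 had 1 and 0 and mir-241 had 6 and 0. No fold is given at these counts. No entry was found by sequence name for lin-4, mir-84 or mir-237. None of the 6 miRNAs of the list was found by sequence name among the poly(A) rows.

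Adult stage genes differed widely in level in poly(A) RNA. The adult collagen gene col-19, a target that LIN-29 turns on, is listed in the authors' deposited table at 1332 FPKM in wild type against 1620 under RNAi (log2 fold change 0.28, implied SE 0.45, q = 0.661). The yolk protein gene vit-2 had 2525 against 2916 FPKM there (q = 0.83). The adult collagen genes col-7 and col-62 were far lower, at 0.0774 against 2.38 FPKM and 0.242 against 4.64 FPKM in the authors' deposited table, and were not tested by the authors. The larval collagen gene col-17, which LIN-29 turns down, rose from 0.161 FPKM in wild type to 37.1 FPKM under RNAi (q = 0.000408, authors' deposited table). Of 13 tested stage genes 1 rose (col-17), 2 fell (vit-1 and nhr-23, which is also among the pathway genes above) and 10 did not pass. The shares over all tested genes were 3.12% higher and 13.6% lower, so the 2 falls lie near the background. Against the median gene, col-17 alone passed (log2 fold change 8.75), where 6.15% of 8244 tested genes did.

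In rRNA-depleted RNA both the larval and the adult collagens were higher in B. The gene col-19 had 3533 and 1165 recovered counts in A against 35606 and 12447 in B, and means of 4730 and 8941 (adjusted p = 0.0025) in the authors' deposited table. The adult collagen genes col-7 and col-62 were also higher in B. The gene col-7 had 2.71 and 44.2 normalized counts in A (2 and 11 recovered counts) against 417 and 413 in B. Its libraries of A lay far apart, and its limma-voom log2 fold change ran from 3.18 without library 1 of A to 6.95 without library 2. The gene col-62 had 8.12 and 36.1 normalized counts in A against 432 and 438 in B, with a log2 fold change from 3.52 to 5.63 over the same omissions. The larval gene col-17 had no count in either library of A and 1652 and 527 in B, at least 131-fold higher against a floor of 3 counts over both libraries. Collagens of both ages thus lay on the same side.

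Of 22 stage genes 11 passed as higher in B and 0 as lower by DESeq, where 5.54% and 2.77% of all genes did, and 13 had an unadjusted p under 0.05. The 11 were the 4 collagens, vit-2 and 6 of 9 molt cycle genes, which build or remodel the cuticle. Of 6 yolk protein genes the other 5 did not pass, and the median log2 fold change of the list was 0.16. Also among the 13 were vit-6, higher in B, and vit-1, lower in B. Their means in A and B were 219708 and 321077 for vit-6 and 96310 and 70891 for vit-1 (authors' deposited table). The 6 molt cycle genes were mlt-11, noah-1, noah-2, qua-1, nas-37 and fbn-1. The largest difference among the 6 in the authors' deposited table was that of qua-1, a hedgehog-related gene, with means of 9.45 and 141 (adjusted p = 2.3e-06). Its mean in A rests on only 11 and 1 recovered counts, against 520 and 214 in B. By limma-voom its log2 fold change was 4.57 without library 1 of A and 3.20 without library 2 of A. The list was drawn up with earlier results for some of these genes known.

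**Figure D5:**
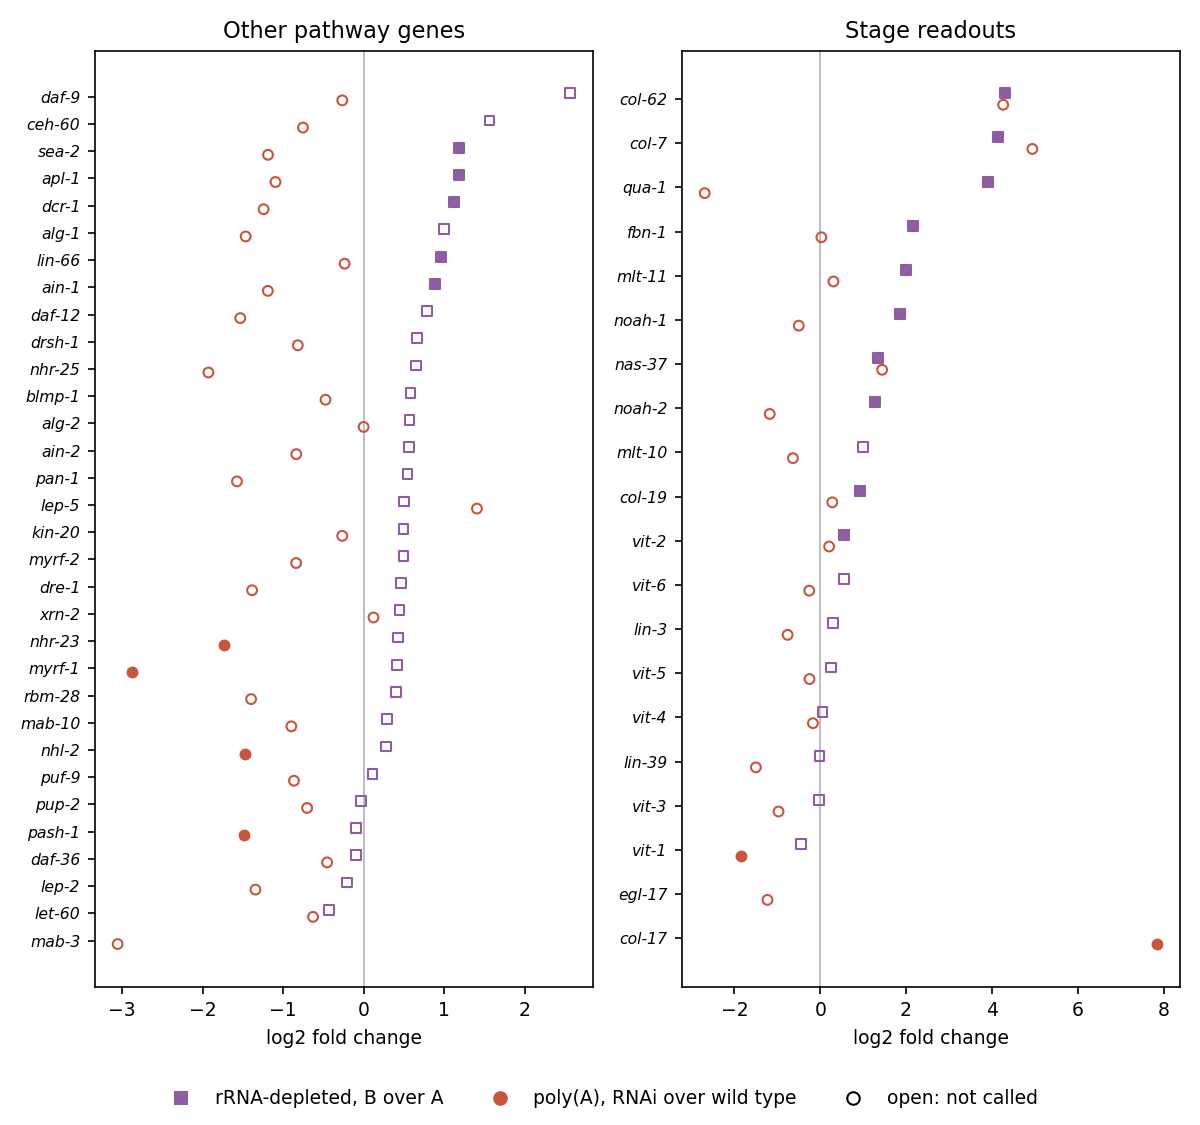
Log2 fold changes of other pathway genes and of stage readouts in rRNA-depleted RNA (squares, B over A) and poly(A) RNA (circles, CstF50 RNAi over wild type), filled where the authors' adjusted p or q was under 0.05 and open otherwise; genes at 0 in a group have no point for that table. Most pathway genes lie left of 0 in poly(A) RNA and right of 0 in rRNA-depleted RNA, and col-17 lies furthest right at 7.85 in poly(A) RNA.

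Markers of other cell types moved with these values to different degrees. The 6 sperm markers summed to 14.1 FPKM in wild type against 205 FPKM under RNAi, and to 27.1 and 80.3 normalized counts in A against 2798 and 4659 in B, with 3 of the 6 at 0 in A. The 8 markers of seam cells, the epidermal stem cells in which lin-28, hbl-1 and lin-29 act, summed to 186 and 36.1 FPKM, of which grd-10 alone made 143.9 and 19.96. In rRNA-depleted RNA they summed to between 617 and 670.4 in all 4 libraries, and no seam marker was at 0. The steady sum holds members whose values differed in opposite directions. None of the 8 passed by DESeq. By limma-voom 1 was higher and 1 lower in B, as were 16% and 11.7% of all genes. The lower was grd-10, with 313 and 205 normalized counts in A against 111 and 81.8 in B (limma-voom adjusted p = 0.00324). The higher was egl-18, with 198 and 225 in A against 372.5 and 349 in B (limma-voom adjusted p = 0.0121).

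In rRNA-depleted RNA both muscle markers were higher in B in the authors' deposited table, unc-54 with means of 4912 and 14999 (DESeq adjusted p = 1.84e-14) and myo-3 with means of 1102 and 2073 (adjusted p = 0.00232). Of 4 neuronal markers 1 passed by DESeq, rab-3, with means of 287 and 108 (adjusted p = 0.00557, authors' deposited table). The neuronal marker snb-1 went the other way, with means of 716 and 1737 (DESeq adjusted p = 0.544, authors' deposited table). By limma-voom rab-3 was lower (adjusted p = 0.000925) and snb-1 higher in B (adjusted p = 0.0285), while unc-119 and unc-64 did not pass. Over all genes 8.31% passed by DESeq and 27.8% by limma-voom. Of 3 epidermal markers none passed by DESeq (1 had an unadjusted p under 0.05), and by limma-voom elt-3 (adjusted p = 0.00272) and dpy-7 (adjusted p = 0.027) were lower in B. The 2 intestinal markers did not pass by DESeq, with sums of 292 and 345 normalized counts in A against 429 and 479.7 in B. By limma-voom ges-1 was higher in B (log2 fold change 0.73, adjusted p = 0.0272), while elt-2 did not pass (0.07, adjusted p = 0.868). The part of sperm, muscle, neuronal, intestinal, epidermal or seam cell RNA in the heterochronic, collagen and molt gene values was not tested.

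The libraries of A were shallower. Recovered counts came to 8287225 and 2852328 for A, against 35793329 and 15120881 for B, leaving out the most abundant genes. In the authors' deposited table cpf-1 had means of 1695 in A and 8662 in B (DESeq adjusted p = 0.00296).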

How the data were processed

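Poly(A)-selected and rRNA-depleted RNA of 4 groups with 2 libraries each was grouped by sample title. The authors used Bowtie, DESeq and the build ce10, per the submitters' processing notes; of the counter, annotation and filters nothing is stated. The poly(A) table gives 1 FPKM per group, a p-value and a q-value, which the authors deposited in the layout of Cuffdiff; 35940 of its rows have the status NOTEST. The rRNA-depleted table gives mean normalized counts (counts over size factors) for conditions A and B, beside raw and adjusted p-values, per the file headers. Identical repeated rows were used once. Loci are on ce10, written 1-based.

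Calls use the authors' q-value or adjusted p under 0.05. Fold changes were recomputed from group values, and the poly(A) SE is the size of that log2 value over the normal deviate matching the authors' p-value. Whole counts per library were recovered from means up to 30000 where 1 solution matched within 0.6 units of the last digit, which gave 25472 genes for A and 25403 for B out of 25640. The size factors were 0.739 and 0.249 (A), 3.63 and 1.54 (B); library numbers 1 and 2 only name them. These counts, with a total of at least 10, were fitted with limma-voom (limma 3.58.1, R 4.3.3) and trimmed-mean scaling. Scripts were tested on simulated data. The depth behind the FPKM values is unknown. An exact permutation of 2 against 2 libraries cannot give a p below 0.333, so none was run.

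The rule for named genes took all members, pathway genes past the authors' test, lin-4, let-7, col-19, col-17 and the 2 genes nearest to lin-28. Other genes given by name (further miRNAs, stage genes, cell type markers, genes sharing a locus, lep-5 and cpf-1) fall outside it and were chosen after their values were seen. Members and lists were chosen with earlier results of these data known. Of the gene names used, 11 were matched through the RefSeq list of assembly WBcel235. Intervals and floors cover counting error only.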

Additional observations from a re-analysis of the deposited data

How the results depend on the processing

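Of the 7 heterochronic genes, the authors' tests called 0 in poly(A) RNA and 1 in rRNA-depleted RNA. The poly(A) count stayed 0 relative to the median gene and adjusted over all rows. A filter at a mean of 1 FPKM removed no tested gene, and a pseudocount of 1 FPKM leaves the authors' q-values as they are, so neither could change the count; 1 tested member had an unadjusted Cuffdiff p under 0.05. The rRNA-depleted count was 3 by limma-voom with trimmed-mean scaling and 3 with the recovered size factors (lin-28 lower, lin-29 and lin-42 higher), and 1 to 4 leaving out each library in turn. A lone library is then assumed to vary like the other condition, and no share over all genes is given for fits with a library left out. Over all genes 8.31% passed by DESeq, 27.8% by limma-voom with trimmed-mean scaling and 28.1% with the recovered size factors. The rise from 1 to 3 members on all 4 libraries thus came with a rise over all genes. Leaving out libraries, log2 fold changes ran from -0.049 to 0.30 for lin-14, from -1.13 to 0.0083 for lin-46 and from -0.14 to 0.016 for hbl-1, crossing 0, and from -0.91 to -0.69 for lin-28. Of the other pathway genes, 4 were called in poly(A) RNA, against 1 relative to the median gene, in the other direction, and 1 adjusted over all rows, which untested rows enlarge. Over all genes the shares called in these settings were 16.8%, 6.15% and 1.13%, in that order. In rRNA-depleted RNA 5 were called, against 16 by limma-voom with either scaling and 6 to 19 (8 and 18 without library 1 of A or of B) leaving out each library. The 3 stage genes called in poly(A) RNA became 1 relative to the median gene and 2 adjusted over all rows. The 11 in rRNA-depleted RNA became 10 relative to the median gene, 12 at a mean of at least 10 and 10 by limma-voom. Over all genes the share called went from 8.31% to 11%, 15.6% and 27.8% in these settings. Limma-voom fitted 16 of the 22 stage genes and none of the yolk protein genes, so vit-2 dropped out. The cause of the changes in these counts was not tested. Both scalings of the recovered counts differed by a median log2 of 0.011. No paired analysis was possible because the columns carry no replicate numbers. The 10 to 36 counts behind lin-29, lin-42 and lin-46 in A limit their precision.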

Other observations

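Of 15234 genes with values above 0 in every group of both tables, those nearest to lin-28 by Euclidean distance of its 2 log2 fold changes were Y57A10A.3 at 0.0101 and F10E7.1 at 0.0215. The gene Y57A10A.3 had 17.3 and 4.8 FPKM in wild type and RNAi and means of 380 and 213 in A and B in the authors' deposited table. The gene F10E7.1 had 0.161 and 0.0445 FPKM and means of 24.9 and 13.8 in the authors' deposited table. With only 2 fold changes per gene, such closeness is a description of these values.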
